A study of Psammomys obesus with 8 samples.

Results

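Methyl-CpG capture sequencing of sand rat hypothalamus was examined at the contigs that matched the distal end of mouse chromosome 5, the neighbourhood of the ParaHox genes Gsx1, Pdx1 and Cdx2. A contig was included when its deposited mouse match lay on chromosome 5 with both ends between 140 and 152 Mb, and 1808 of the 548060 contigs of the table met this rule. Of the 208288 contigs with any mouse match, 12526 others lay on chromosome 5 and form the rest of that chromosome. No measured value chose the contigs. They were paired with 150 mouse genes, and 1163 contigs lay inside 120 of them.

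The animals were Psammomys obesus, a desert rodent called the fat sand rat that becomes obese and diabetic on laboratory chow. All libraries came from hypothalamus of males culled at 16 weeks after birth, with 4 libraries labelled standard-low lipid and 4 labelled low-low lipid. The labels do not say that these were separate animals, so n counts libraries throughout. The design text names paternal diet and the series title speaks of parental diet, and the labels do not say which word of a group name stands for which generation. DNA was enriched for methylated CpG with MethylMiner, in which a methyl-CpG binding domain protein retains fragments carrying methylated CpG sites. A count therefore depends on methylation, CpG number, contig length and copy number together, and no input libraries were analysed here. In whole tissue, a different mix of cell types and a different methylation within a cell type cannot be told apart.

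The ParaHox genes are homeobox transcription factors that lie side by side in most mammals. Pdx1 is needed for pancreas formation and insulin transcription, Cdx2 for the intestine and trophectoderm, and in mouse Gsx1 for growth hormone releasing hormone neurons of the hypothalamus. In the sand rat, coding sequence of Pdx1 and of its neighbours is known to be shifted strongly towards G and C, which made Pdx1 hard to detect by sequencing.

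Stretches of 6 contigs show what the table holds at the places the results turn on: the contig nearest each ParaHox gene, the single contig inside the adjoining gene Prhoxnb (now Urad, a decarboxylase of uric acid degradation), the contig with the highest bit score in Trrap, and the most CpG-dense contig of the region. Each is the 150-base stretch with the most CpG sites in its contig, read 5′ to 3′ as deposited, with every CG in capitals. The mouse positions are those of the table, whose mouse build the labels and headers do not state, and a stretch may lie outside the aligned bases.
Gsx1, contig 39496, matched at chr5:147183996-147184046 (minus strand): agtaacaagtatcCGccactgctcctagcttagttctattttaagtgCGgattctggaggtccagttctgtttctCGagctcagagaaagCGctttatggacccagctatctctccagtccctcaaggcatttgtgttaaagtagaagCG
Pdx1, contig 126452, matched at chr5:147283779-147283808 (plus strand): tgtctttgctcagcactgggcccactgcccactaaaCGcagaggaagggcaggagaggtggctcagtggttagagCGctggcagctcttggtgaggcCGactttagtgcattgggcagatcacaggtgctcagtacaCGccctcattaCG
Cdx2, contig 4452553, matched at chr5:147298773-147298805 (plus strand): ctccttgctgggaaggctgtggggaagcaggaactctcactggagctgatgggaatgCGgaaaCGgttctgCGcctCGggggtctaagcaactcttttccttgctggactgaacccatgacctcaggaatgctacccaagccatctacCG
Prhoxnb, contig 1994435, matched at chr5:147319419-147319519 (plus strand): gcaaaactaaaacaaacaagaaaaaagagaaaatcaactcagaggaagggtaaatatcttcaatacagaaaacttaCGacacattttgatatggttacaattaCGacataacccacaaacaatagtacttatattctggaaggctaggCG
Trrap, contig 3676739, matched at chr5:144853879-144854758 (minus strand): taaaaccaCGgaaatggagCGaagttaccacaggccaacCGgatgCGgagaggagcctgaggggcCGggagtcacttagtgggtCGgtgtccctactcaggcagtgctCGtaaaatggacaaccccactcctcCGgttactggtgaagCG
Mir5105, contig 4178598, matched at chr5:146260979-146261152 (plus strand): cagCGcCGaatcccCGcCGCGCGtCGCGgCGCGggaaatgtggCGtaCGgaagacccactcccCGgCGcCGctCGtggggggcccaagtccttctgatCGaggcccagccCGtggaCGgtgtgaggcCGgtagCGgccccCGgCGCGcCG

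The libraries held 11646180 to 12156525 counts in standard-low and 12528388 to 13533441 counts in low-low animals, of which 46253 to 54772 and 55431 to 58547 fell on the region. Every contig of the table had at least 81 counts over the 8 libraries. Over lists of marker genes of neurons, glia, endothelium, pituitary and blood, 24 of 31 genes held a contig, and 0 of their 331 contigs passed the adjusted threshold of the edgeR test described below, with 18 (5.44%) at an unadjusted p below 0.05, against 5.68% of the table. The summed level of the oligodendrocyte markers ran from 56.5 to 75.6 CPM (counts scaled to the library total) in standard-low and from 69.6 to 73.6 CPM in low-low libraries, and that of the neuron markers from 233.5 to 262.4 CPM in standard-low and from 243.5 to 253.9 CPM in low-low libraries. For the microglia markers the ranges were 69.9 to 96.3 CPM in standard-low and 88.9 to 91.9 CPM in low-low libraries, and for the pituitary markers 5.57 to 11.2 and 8.71 to 10.6 CPM. Astrocyte, endothelium and blood markers had overlapping ranges too, and the part of any of these in the results was not tested. Of the 109 contigs of the endothelium markers, 75 lay inside Flt1, itself a gene of the region whose clustered matches are described below.

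The first question was how well the sand rat contigs matched mouse along the region. Matches were short towards the ParaHox genes: the median contig was aligned to mouse over 26% of its length in the region and over 42.4% in the rest of chromosome 5, and the median aligned stretch was 134 and 209 bases. The region was not uniform, and most of that difference sat in its outer 7 Mb, from 145 to 152 Mb, where the median was 16.9%, against 39.7% in the inner 5 Mb, from 140 to 145 Mb. This inner boundary, and the definitions of a long match and a cluster that follow, were chosen after the values were seen. Contigs are not replicates of a condition, so the comparisons along the chromosome are given as descriptions without a test.

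A long match was defined as at least 50% of the contig aligned with a bit score of at least 100, counted among contigs whose match overlapped no other contig's match. It was found in 27 of 344 such contigs (7.85%) of the outer 7 Mb and in 454 of 937 (48.5%) of the inner 5 Mb, against 50.4% in the rest of chromosome 5. The step lay at 145 Mb: each of the 7 outer 1-Mb bins held 1 to 7 long matches and a share between 1.72% and 15.6%, while each of the 5 inner bins held 64 to 153 and a share between 41.2% and 60.2%. Among 99 bins of the rest of chromosome 5 the share ran from 19.2% to 80.2% with a median of 52.2%. Of 1817 other autosomal bins with at least 25 such contigs, 5 lay at or under 15.6%, and the median was 54.2%. On the X chromosome 32 of 59 bins did, with a median of 15.1%. Taken as a window of 12 Mb, the region had the lowest median aligned share and the lowest share of long matches of 195 autosomal windows. With the X chromosome included it ranked 12 from the lowest of 206 windows on each.

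**Figure D1:**
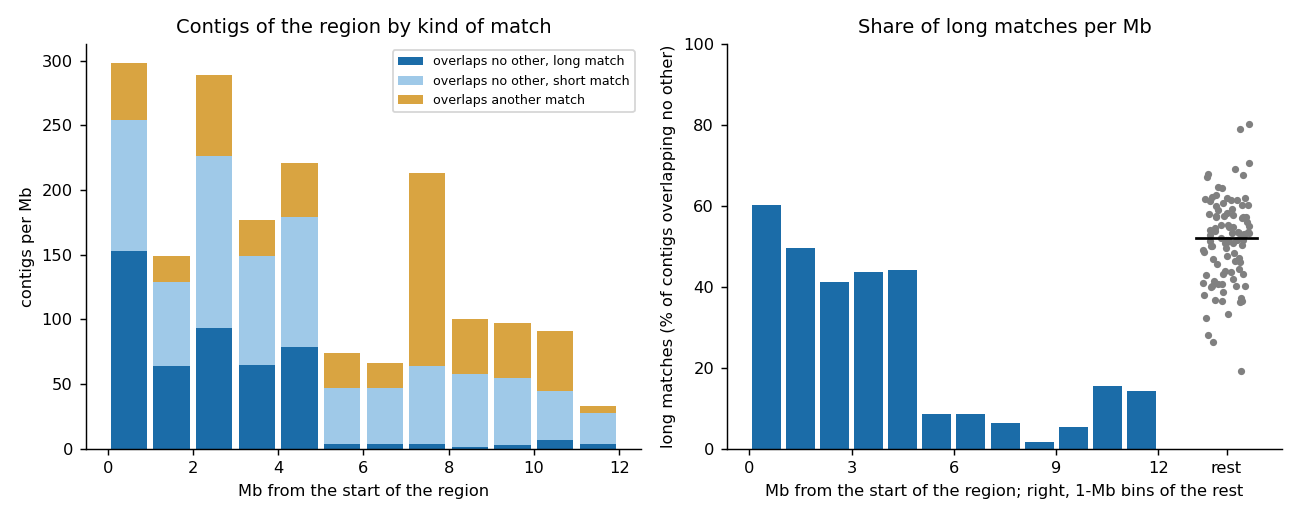
Contigs per Mb by kind of match (left, stacked bars) and the long-match share of contigs overlapping no other match (right, %), against distance in Mb from the start of the region; grey points are 1-Mb bins of the rest of chromosome 5 and the black line is their median, 52.2%. The dark bars drop after the fifth Mb, where the share falls to between 1.72% and 15.6%.

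The genes followed the same order along the chromosome. In the inner part, 59 of the 70 genes with a contig inside had at least 1 long match there, against 14 of the 51 genes of the outer part. The inner genes held 702 contigs inside that overlapped no other match and the outer genes 166, so fewer could count per outer gene. Sdk1, a synaptic adhesion protein, held the most contigs, 195, of which 167 overlapped no other match and 83 were long matches. Counted likewise among contigs that overlapped no other match, Mad1l1, a spindle checkpoint protein, had 52 long matches among 81. Trrap, the scaffold of histone acetyltransferase complexes, had 31 among 45, and its neighbour Smurf1, a ubiquitin ligase, had 10 among 15. Past Smurf1 long matches became rare. The karyopherin gene Kpna7 had 2 among 10, and Arpc1b, a subunit of the actin-nucleating Arp2/3 complex, had 0 among 8. Among the 27 long matches of the outer part, 3 were paired with Pds5b, a cohesin cofactor, and 2 each with Rxfp2, the receptor for insulin-like peptide 3, and Stard13, which encodes a lipid-binding START domain protein.

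None of the 3 ParaHox genes had a contig inside it. Gsx1 was the nearest gene of 9 contigs, Pdx1 of 4 and Cdx2 of 3, and 0 of these 16 were long matches. Only contigs that overlapped no other match could count as long, and these numbered 5, 4 and 3. The nearest contigs lay 4650 bases from Gsx1, 5771 from Pdx1 and 2000 from Cdx2, with 52, 30 and 33 bases aligned out of 480, 578 and 626. The best aligned of the 16, contig 3973593 at 29465 bases from Gsx1, was aligned over 82.9% of its 381 bases with a bit score of 178. It overlapped 1 other match, and for that reason alone was not counted as long. Median GC content was 48.1% for the Gsx1 contigs, 46.7% for the Pdx1 contigs and 46.0% for the Cdx2 contigs, against 48.8% over the outer part. The Prhoxnb contig had 36.9% GC and 104 of 371 bases aligned.

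The neighbours of the ParaHox genes were likewise covered by short or repeated matches. All 22 genes listed as neighbours were paired with a contig, 262 contigs in all, and 15 had one inside. Flt3, a receptor tyrosine kinase of blood progenitors, had 21 contigs, of which 10 overlapped at least 2 other matches. Of its 9 contigs that overlapped no other match, 1 was a long match. Pan3, a subunit of a poly(A) nuclease, had 13 contigs, with 0 long matches among the 4 that overlapped no other match. Polr1d, a subunit of RNA polymerases I and III, had 1 among 6 such contigs. Of 16 further genes listed as regulators or cytoskeletal genes of the region, 12 were paired with a contig, each with at least 1 inside, and 4 had none: Uncx, Mafk, Gper1 and Elfn1.

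**Figure D2:**
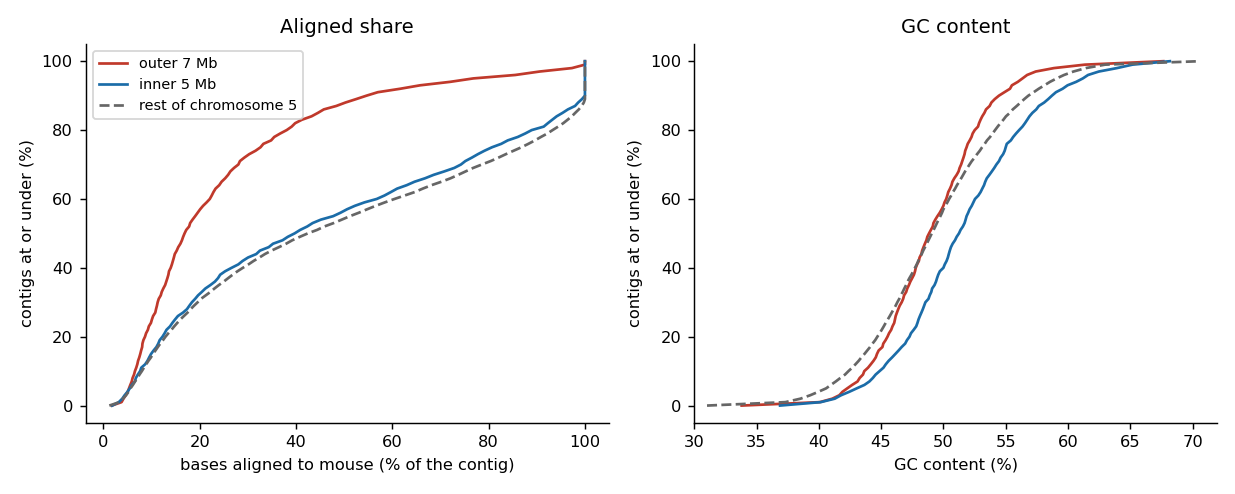
Cumulative share of contigs (%) by aligned share of the contig (left, %) and by GC content (right, %) for the outer 7 Mb (red), the inner 5 Mb (blue) and the rest of chromosome 5 (dashed grey). The outer curve lies far to the left for the aligned share, median 16.9%, while for GC it is the inner curve that lies to the right, median 51.3%.

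Many contigs of the outer part shared one mouse interval. A contig overlapped at least 2 other matches in 35.3% of the outer contigs, against 7.0% in the rest of chromosome 5. The region as a whole, at 18.3%, ranked highest of 195 autosomal windows on this measure, and 2 from the highest of 206 windows with the X chromosome included. Overlapping matches formed 54 clusters of at least 3 contigs, which held 333 contigs, and 7 clusters of at least 10, which held 141 contigs. Of these 7, 6 lay in the outer part.

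The greatest cluster was in Flt1, the gene of a vascular endothelial growth factor receptor: 57 contigs matched within chr5:147622332-147622733, a span of 402 bases. They were not copies of one contig, since their GC content ran from 40.7% to 57.5% and their mean abundance from 0.819 to 6.45 CPM. The next cluster held 22 contigs within 201 bases beside Arpc1a, another Arp2/3 subunit. Clusters of 14 lay in 2210019I11Rik and beside Gm15721, one of 13 in Mtus2, a microtubule-associated protein, one of 10 elsewhere in Flt1, and the sole inner one, of 11, beside the actin bundling gene Fscn1. Because 67 of the 86 Flt1 contigs overlapped at least 2 other matches, most of its count came from contigs whose place in the sand rat genome is uncertain: the 2 Flt1 clusters summed to 104.8 and 21.2 CPM.

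To show what the clustered contigs have in common, the 24-base word shared by the most contigs of a cluster is given for 3 of them, read on either strand, with CG in capitals where present.
Flt1 cluster of 57: acctctgaaactgtaagccagccc
Gm15721 cluster of 14: cagaagagggCGtcagatcccctg
Fscn1 cluster of 11: acagagatccacctgcctctgcct
The Flt1 word occurred in 16 of the 57 contigs and in 87 contigs of the whole table. The Gm15721 word occurred in 7 of 14 and in 26 of the table, and the Fscn1 word in 5 of 11 and in 488 of the table. All 87 and all 26 table contigs with the first and second word had a mouse match, as did 487 of the 488 with the third. No repeat annotation was used here, so the words are given without a family name.

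**Figure D3:**
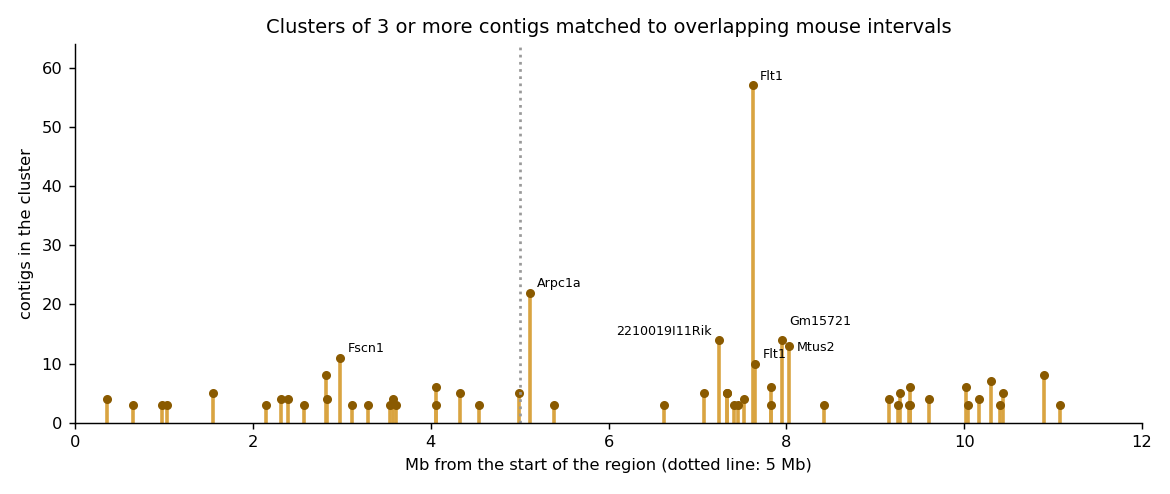
Number of contigs in each cluster of 3 or more overlapping mouse matches (vertical axis) against the cluster's distance in Mb from the start of the region; clusters of at least 10 contigs carry the name of their paired gene. The Flt1 cluster of 57 and 5 others of at least 10 lie beyond the dotted line at 5 Mb.

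The region's base composition differed little from that of the rest of chromosome 5, and in opposite ways in its 2 parts. Median GC content was 50.4% in the region and 49.1% in the rest, and ranked 28 from the highest of 206 windows. The outer part, which holds the ParaHox genes, had a median of 48.8% and the inner part 51.3%, so the higher GC of the region came from the inner part, and the outer part lay 0.22 percentage points under the rest. Contigs of at least 60% GC made up 1.48% of the outer part, 6.88% of the inner part and 3.57% of the rest. Among contigs with at least 100 bits, the 5 of highest GC had 66.7% to 68.2%, and they lay in Slc29a4, in Grid2ip with 2 contigs, in Mad1l1 and at Mir5105. Contigs without any mouse match, which the rule cannot place, numbered 339772 and had a median GC of 48.2%, with 2.28% at 60% or more.

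CpG density was 2.23 per 100 bases in the region and 2.20 in the rest, with 2.05 in the outer and 2.38 in the inner part. The observed over expected CpG ratio, which is low where methylated CpG has been lost by mutation, was 0.364 in the region, 0.350 in its outer part and 0.371 in its inner part, against 0.377 in the rest. Contigs over 200 bases with more than 50% GC and a ratio above 0.6, the usual criteria of a CpG island, numbered 1 in the outer part (0.148%) and 20 in the inner part (1.76%), against 159 (1.27%) in the rest.

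Abundance in the capture, not divided by contig length, rose with the number of CpG sites in the region as in the rest. How much of this rise went with contig length was not tested. The median contig with 6 to 10 CpG sites had 1.22 CPM in the region and 1.20 CPM in the rest, and that with at least 26 sites had 5.23 and 4.75 CPM. Over all contigs the median was 1.78 CPM in the region and 1.62 CPM in the rest, with 1.61 CPM in the outer and 1.88 CPM in the inner part. The most abundant contig, 1866436 inside C330006K01Rik, averaged 16.1 ± 4.0 CPM in standard-low and 17.9 ± 1.33 CPM in low-low animals (SD, n = 4 each; edgeR adjusted p = 0.945). Contigs paired with Mir5105, Pomp and Grifin were also among the most abundant, at 12.9 to 15.2 CPM over all libraries. The contig paired with Mir5105, shown above, had the most sites per base and the highest signal per kb of the region: 41 CpG sites in 337 bases, a ratio of 1.06, the highest of the region, and 45.1 CPM per kb, against 15.2 for the next contig, which lay inside Stard13. It was the only outer contig that met the CpG island criteria. It had 17.1, 17.1, 19.3 and 11.5 CPM in standard-low libraries 1 to 4 and 14.2, 16.9, 17.2 and 8.37 CPM in low-low libraries 1 to 4, so the groups overlapped. Its log2 fold change was 0.20 ± 0.14 (SE; edgeR adjusted p = 0.925), and whether it comes from a sequence with many copies was not tested.

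The second question was whether the groups differed at these contigs. The share of all counts that fell on the region was 0.427%, 0.397%, 0.451% and 0.424% in standard-low libraries 1 to 4 and 0.432%, 0.433%, 0.442% and 0.437% in low-low libraries 1 to 4. Standard-low libraries 2 and 3 were the lowest and the highest of all 8, and the groups overlapped. The mean was 0.425% ± 0.0220 in standard-low and 0.436% ± 0.00476 in low-low animals (SD, n = 4 each; two-sided exact permutation p = 0.371). The same held for GC: weighted by counts, the GC content of the region was 51.6% ± 0.304 in standard-low and 51.8% ± 0.0676 in low-low animals (exact permutation p = 0.286, n = 4 each), and in the rest of chromosome 5 it was 50.2% ± 0.371 and 50.4% ± 0.0565 (exact permutation p = 0.229). The GC-richest quartile of the region's contigs took 31.5% ± 2.27 of its counts in standard-low and 33.0% ± 0.458 in low-low animals (exact permutation p = 0.286, n = 4 each). All 6 measures of this kind had an adjusted p of 0.371, and the smallest p that 4 libraries against 4 can give is 0.0286. Without standard-low library 3, 5 of the 6 reached an unadjusted exact permutation p of 0.0286, the smallest that 3 libraries against 4 can give. The 5 included the GC of the rest of chromosome 5 and came from counts of the same libraries, so they are not separate evidence about the region. In that setting the difference in the share of all counts was -0.0203 percentage points, against -0.0116 with all libraries. Without standard-low library 2 that difference was -0.00239 percentage points (exact permutation p = 0.771), and the difference in the region's GC was -0.0937 percentage points (exact permutation p = 0.571), against -0.208 with all libraries.

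**Figure D4:**
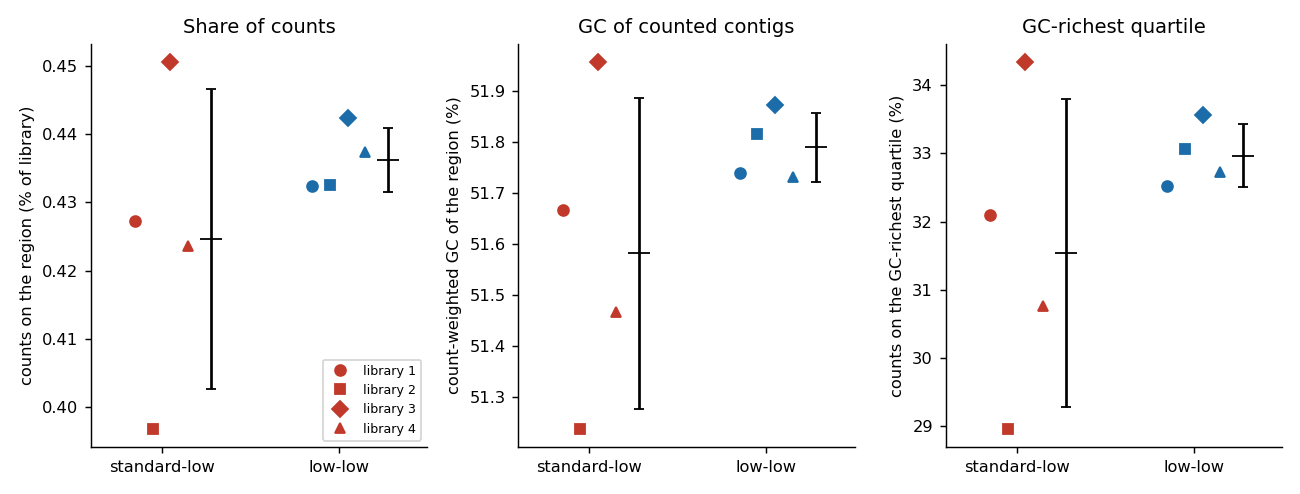
Share of all counts on the region (left, %), count-weighted GC of the region (middle, %) and share of the region's counts on its GC-richest quartile (right, %) in each library, with the mean and SD of each group as black bars; axes do not start at 0. Standard-low libraries 2 and 3 mark the lowest and highest value in each panel, and the low-low libraries lie between them.

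None of the 1808 contigs differed between the groups at an adjusted p below 0.05 in edgeR's quasi-likelihood test, fitted and adjusted over the whole table, in which 147 of 548060 contigs passed (0.0268%). DESeq2 and limma voom also called 0 of them. At an unadjusted p below 0.05 edgeR listed 107 members, or 5.92%, against 5.68% of the table. DESeq2 listed 43 at that level and voom 119. Shares of the whole table in the DESeq2 and voom fits are not given here, so those counts cannot be set against a background. The lowest adjusted p of a member was 0.646. Groups did not overlap in CPM for 63 members (3.48%), against 3.24% of the table.

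The direction of the small differences went with GC content. Of the 107, 32 (1.77% of the members) were higher and 75 (4.15%) lower in standard-low animals, where the table had 2.93% higher and 2.76% lower. Median GC was 47.4% in the 32 and 53.5% in the 75. The median log2 fold change was -0.11 in the GC-richest quartile of the members and 0.05 in the GC-poorest quartile, and -0.08 and 0.07 in the same quartiles of the whole table. The count-weighted GC of the libraries, given above, was computed from the same counts and so is not a separate measure of these differences. Their cause was not tested. Without standard-low library 3 the number at an unadjusted p below 0.05 was 156 (8.63%), against 7.5% of the table in the same fit.

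**Figure D5:**
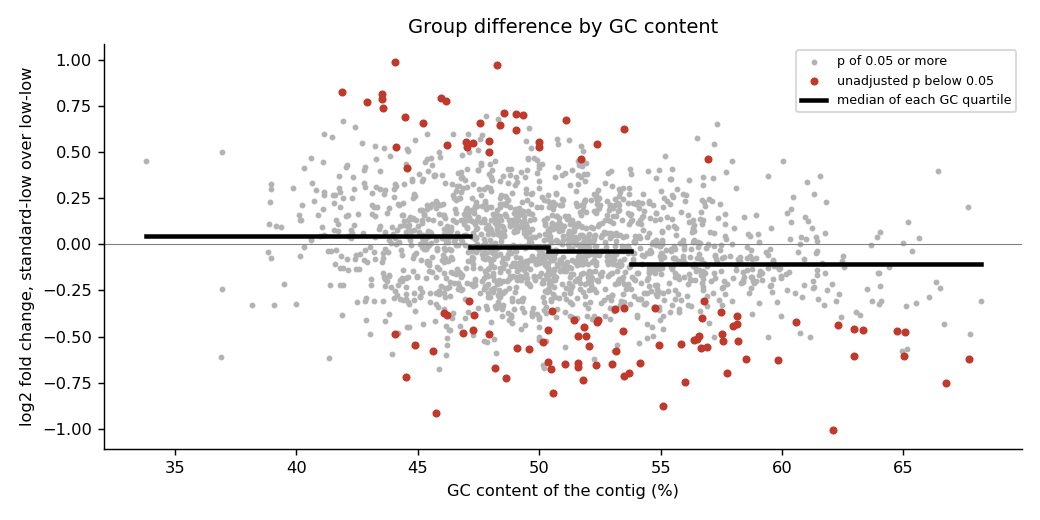
Log2 fold change of standard-low over low-low animals (vertical axis, edgeR) against GC content of the contig (horizontal axis, %), one point per contig of the region; red points have an unadjusted p below 0.05 and black bars are medians of the GC quartiles, from 0.05 in the GC-poorest to -0.11 in the GC-richest. Red points below 0 lie further to the right than those above 0.

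The contig with the lowest p lay in the Arpc1a cluster. Contig 2152494 had 1.46, 1.94, 1.82 and 1.69 CPM in standard-low libraries 1 to 4 and 1.99, 2.82, 3.21 and 3.61 CPM in low-low libraries 1 to 4, a log2 fold change of -0.75 ± 0.23 (SE; edgeR adjusted p = 0.646). The groups did not overlap. Another contig of that cluster, 3457257, differed the other way: it had 1.63, 1.86, 1.66 and 2.37 CPM in standard-low and 0.840, 1.19, 1.04 and 1.15 CPM in low-low libraries, a log2 fold change of 0.82 ± 0.28 (edgeR adjusted p = 0.740). Both matched the same mouse interval, and their GC contents were 56.0% and 41.9%.

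Of the 10 contigs with the lowest p, 7 had lower values in standard-low animals. The largest of these differences was at contig 998743 inside Zfp498, a zinc finger gene, with a log2 fold change of -1.01 ± 0.33 (edgeR adjusted p = 0.724). It had 0.513 to 0.761 CPM in standard-low and 0.966 to 1.69 CPM in low-low libraries, and its GC content was 62.1%. Contig 1468629 in Foxk1, a forkhead transcription factor gene, had 4.05 to 6.88 CPM in standard-low and 6.99 to 7.87 CPM in low-low libraries (log2 fold change -0.46 ± 0.16, edgeR adjusted p = 0.749). Contigs with higher values in standard-low animals were found in Usp42, a deubiquitinase gene, with 1.88 to 2.62 CPM against 1.19 to 1.85 CPM in low-low libraries, and in Wipi2, an autophagy gene, with 1.63 to 3.32 CPM against 0.642 to 2.01 CPM. Their adjusted edgeR p-values were 0.726 and 0.718.

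Near the ParaHox genes, 1 of the 16 contigs had an unadjusted edgeR p below 0.05, against 5.68% of the table. This was contig 39496, the nearest to Gsx1, with 1.46, 1.52, 1.33 and 1.27 CPM in standard-low libraries 1 to 4 and 0.688, 0.817, 0.963 and 0.691 CPM in low-low libraries 1 to 4. The groups did not overlap, and the log2 fold change was 0.81 ± 0.32 (SE; edgeR adjusted p = 0.810). Its match overlapped that of contig 4344021, which averaged a log2 fold change of 0.10 ± 0.35 (edgeR adjusted p = 0.990). The contig nearest Pdx1 averaged 1.24 ± 0.215 CPM in standard-low and 1.35 ± 0.362 CPM in low-low animals (SD, n = 4 each; edgeR adjusted p = 0.986). The contig nearest Cdx2 averaged 1.77 ± 0.403 CPM and 1.96 ± 0.163 CPM (edgeR adjusted p = 0.977), and the Prhoxnb contig 1.01 ± 0.292 CPM and 0.719 ± 0.350 CPM (edgeR adjusted p = 0.927). Contig 39496 held 15 to 18 counts per library in standard-low and 9 to 12 in low-low animals. The contigs nearest Gsx1, Pdx1 and Cdx2 matched mouse with bit scores of only 62.1, 56.5 and 54.7. Whether they lie near these genes in the sand rat genome was not tested.

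Counts summed over the contigs inside each gene gave no call among the 120 genes of the region, whereas 1 of 18910 gene sums of the table passed (0.00529%). In edgeR, 9 of the 120 had an unadjusted p below 0.05 (7.50%), against 6.03% of all gene sums. Of the 9, 8 were lower in standard-low animals (6.67% of the 120), and sums over the whole table leaned the same way, with 819 of its 1141 lower (4.33% of all sums). DESeq2 and voom also called 0, with 6 and 11 at an unadjusted p below 0.05, and their shares over all gene sums are not given here. The lowest p belonged to Cyp3a25, a cytochrome P450 gene, at 7.96, 6.50, 8.12 and 8.37 CPM in standard-low libraries 1 to 4 and 5.65, 6.54, 4.50 and 5.07 CPM in low-low libraries 1 to 4 (log2 fold change 0.50 ± 0.14, edgeR adjusted p = 0.805). The groups overlapped through standard-low library 2 and low-low library 2. The 6 contigs paired with Cyp3a25, 4 of them inside it, had a median aligned share of 7.81% and 0 long matches. Whether they lie in this gene in the sand rat genome was not tested.

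Slc29a4, a plasma membrane monoamine transporter gene whose contigs had a median GC of 57.2%, summed to 22.4, 16.6, 28.4 and 21.7 CPM in standard-low and 27.0, 26.8, 28.7 and 27.3 CPM in low-low libraries, a log2 fold change of -0.30 ± 0.11 (edgeR adjusted p = 0.805). Without standard-low library 3 it was the 1 gene sum of the region to pass, at -0.44 with an adjusted edgeR p of 0.0412, while 27 gene sums of the whole table passed (0.143%). In that fit 31 of the 120 (25.8%) had an unadjusted p below 0.05, against 14.8% of all gene sums. Without standard-low library 2 the Slc29a4 log2 fold change was -0.18, and with contigs up to 10 kb outside the gene added it was -0.16, neither past the threshold. Fbxl18, an F-box gene, summed to 15.9 to 21.6 CPM in standard-low and 21.8 to 24.1 CPM in low-low libraries without overlap (log2 fold change -0.30 ± 0.09, edgeR adjusted p = 0.805).

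The 15 gene sums of the listed neighbours of the ParaHox genes had a median log2 fold change of -0.05, against -0.03 over all gene sums. Of the 15, 0 passed and 1 had an unadjusted p below 0.05 in edgeR, against 6.03% of all gene sums. That 1 was Flt3, with 25.9, 28.5, 28.5 and 27.4 CPM in standard-low and 30.3, 31.4, 32.8 and 28.8 CPM in low-low libraries, which did not overlap (log2 fold change -0.16 ± 0.07, edgeR adjusted p = 0.805). Flt1, summed over 75 contigs, had 149.4 ± 5.99 CPM in standard-low and 147.9 ± 3.29 CPM in low-low animals (SD, n = 4 each; edgeR adjusted p = 0.966). Of the 12 sums of the listed regulators and cytoskeletal genes, 0 passed. In edgeR 1 of the 12, Trrap, had an unadjusted p below 0.05, against 6.03% of all gene sums. The Trrap sum was 118.0 ± 8.93 CPM in standard-low and 130.6 ± 5.04 CPM in low-low animals (SD, n = 4 each; log2 fold change -0.15 ± 0.05, edgeR adjusted p = 0.805).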

How the data were processed

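The deposited table gave, for 8 methyl-CpG capture libraries, 1 count per contig and library, the contig's sequence and, where one was found, the mouse match with position, bit score, nearest gene and distance to it, per the file headers and contig names. The submitters' processing notes name FastQC and BWA. Versions, the assembler, the mouse build and the treatment of reads matching several contigs are not given in the sources used. The counts were whole numbers, deposited by the authors unscaled. The header separates the library names by spaces, so columns were matched to names in header order.

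The labels give replicate numbers without saying that they were separate animals, so p-values measure only the variation among these samples, part of which may be technical. No 2 libraries were copies: counts of every pair within a group differed by more than sampling noise (chi-square per contig 1.24 to 1.93).

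The contig test was edgeR 4.0.16 under R 4.3.3 (TMM factors, glmQLFit, two-sided glmQLFTest, standard-low over low-low), unfiltered, with Benjamini-Hochberg adjustment over all 548060 contigs at 0.05. Gene sums used contigs at distance 0 and the contig table's library sizes and factors. Values in CPM are counts scaled by the library total times its TMM factor, and medians along the chromosome use the library total alone. Library measures were compared by two-sided exact permutation over 70 relabellings. Alternatives were DESeq2 1.42.0, limma voom 3.58.1, RLE factors, a mean of at least 20 counts, gene sums with contigs up to 10 kb outside the gene, a replicate block and each library left out.

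The region, gene lists and rules were chosen with earlier results of these data known. The text names fixed genes, the 10 contigs and 5 gene sums of lowest p, the contigs of highest abundance or GC, the genes with most contigs and the contig nearest each ParaHox gene, and other contigs, clusters and genes named were chosen after their values were seen. Sequences are the deposited contigs. Some items that the naming rule selects are not reported here.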

Additional observations from a re-analysis of the deposited data

Results flagged for a closer look

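In a group of 4 libraries, 1 library was set apart when its gap to the nearest other, as a share of the group's range, exceeded Dixon's critical value, which chance gives in about 1 group in 20. Of 152 groups examined over library measures, contigs and gene sums, 10 met this. Standard-low library 3 stood apart 4 times: at 4.72 CPM for contig 1747301 in Cyth3, against 2.96 to 3.25 in the other standard-low libraries, at 1.41 CPM for contig 1873636 near Cdx2, against 0.928 to 0.941, at 6.88 CPM for the Wasf3 sum, against 8.28 to 8.44, and at 10.5 CPM for the Ubl3 sum, against 7.76 to 8.11. Low-low library 4 stood apart at 3.23 CPM for contig 2706635 in Gm20635, against 2.82 to 2.89 in the other low-low libraries, at 3.46 CPM for contig 1650687 in Slc29a4, against 3.79 to 3.85, and at 4.76 CPM for the Actb sum, against 3.05 to 3.06. Low-low library 1 stood apart at 6.95 CPM for the Katnal1 sum, against 10.4 to 11, and at 0.458 CPM for the Hmgb1 sum, which is 1 contig, against 1.23 to 1.37. Low-low library 2 stood apart at 10.5 CPM for the Lfng sum, against 12.7 to 12.9. None of these genes or contigs passed the adjusted edgeR threshold with all libraries. Of these contigs, 3 had an unadjusted edgeR p below 0.05, and they were examined because they were among the 10 of lowest p.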

How the results depend on the processing

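The number of member contigs called stayed at 0 under DESeq2, voom, RLE factors, the count filter, the replicate block and each library left out. The number of gene sums called was 0 to 1 over the libraries left out and 0 in the other settings. Samples with the same replicate number did not deviate together (correlations 0.014, 0.032, 0.030 and -0.011). With the replicate block 119 contigs and 16 gene sums had an unadjusted edgeR p below 0.05, with 0 called in both. The whole-table shares of the blocked fits are not given here, so these counts cannot be set against a background. With same-numbered libraries paired, the difference in the share of all counts had an exact sign-flip p of 0.375.

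Over the 8 libraries left out, differences of standard-low minus low-low ran from -0.0203 to -0.00239 percentage points for the share of all counts, from -0.321 to -0.0641 for the share of chromosome 5 counts, from -0.333 to -0.0937 for the GC of the region, from -0.407 to -0.115 for that of the rest and from -2.36 to -0.571 for the GC-richest quartile, each nearest 0 without standard-low library 2. The log2 fold change of contig 126452 near Pdx1 ran from -0.30 to 0.00104, changing sign without standard-low library 4. That of the Slc29a4 sum ran from -0.44 to -0.18. With contigs up to 10 kb outside the gene, the Arpc1a sum, otherwise 1 contig, moved from -0.52 to -0.02 and the Slc29a4 sum to -0.16.

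Differences of the region minus the rest of chromosome 5 depended on the part taken. For the outer and the inner part alone they were -0.22 and 2.18 percentage points of GC, -0.151 and 0.185 CpG per 100 bases, -0.0273 and -0.00564 in the CpG ratio, -79.0 and 11 bits, -0.0146 and 0.261 CPM, -0.0466 and 0.316 CPM per kb, and -25.6 and -2.73 percentage points of aligned share. CpG density differed by 0.0296 per 100 bases, by 0.0750 with matches of at least 100 bits, 0.0196 with bounds moved inward by 2 Mb, 0.0549 against all other matched contigs, 0.0535 with means and 0.101 without overlapping matches. Without overlapping matches the bit score differed by -70.0, and with means CPM differed by 0.244 and aligned share by -10.5. The outer minus inner share of long matches was -40.6 percentage points, and -25.2 with 80% of the contig aligned. The causes were not tested. Of 365 values recomputed, 334 kept their direction and size or side of the threshold. For single contigs, gene sums and library measures only the direction and the side of the threshold were compared. None of these passed with all libraries. CpG density kept its direction and size in 1 setting, moved in size in 6 and changed direction in 1.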
